A study of Sus scrofa with 6 samples.

Results

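The enzymes and the carrier that turn acetyl-CoA into palmitate were followed in the backfat of castrated and intact male pigs. They were the 10 probe sets whose only gene symbol is FASN, ACACA, ACSS2, SLC25A1 or OXSM, which are 5 of 6765 genes and 10 of 10099 probe sets with a single symbol. A probe set is a group of short probes that together report a transcript, and the array carries 4 for FASN, 2 each for ACACA and ACSS2, and 1 each for SLC25A1 and OXSM. In the RefSeq annotation (Sscrofa11.1), FASN and ACACA lie on the same chromosome with 833 annotated genes between them, and each of the others lies on a chromosome without another member.

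The animals were 15 pairs of full brothers bred from Pietrain sires and Landrace dams. In each pair 1 brother lost both testes at 7 days of age, under anesthesia, which made it a barrow, while the other stayed an intact boar. The 30 animals left the sow at 30 days of age, had free access to feed and were slaughtered at 175 days. Fat came from the middle backfat layer over the 6th rib. RNA of 5 boars or of 5 barrows was combined into each pool, which gave 3 boar pools and 3 barrow pools, each on 1 Affymetrix porcine array. A replicate is a pool, so p-values measure the spread between pools and not between single pigs, and a change in the make-up of the tissue cannot be told apart from a change in RNA per cell.

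Fatty acids are built in the cytosol from acetyl-CoA. Acetyl units leave the mitochondrion as citrate through the carrier SLC25A1 and are freed by ATP citrate lyase, or they are made from acetate by the synthetase ACSS2. Acetyl-CoA carboxylase, ACACA, turns acetyl-CoA into malonyl-CoA, and the multifunctional fatty acid synthase, FASN, joins these units into palmitate. Mitochondria have a separate system of single enzymes, in which OXSM is the condensing ketoacyl synthase and which supplies the precursor of lipoate. In pigs adipose tissue is the main site of fatty acid synthesis.

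FASN rose 1.27-fold in barrow fat in its brightest probe set. ACSS2 had a higher mean, which passed the test in its brighter probe set with the replicate number as a block but not without it, and OXSM had a log2 difference of -0.05 that did not pass. Of the 10 member probe sets 8 were bright enough to be tested, and 7 of these had a higher mean in barrows, as 46.6% of all tested probe sets did. With limma over 14399 probe sets, 1 of the 8 rose and 0 fell at an adjusted p under 0.05, where 0.701% of all tested probe sets rose and 0.458% fell. With the replicate number as a block, 4 of the 8 rose and 0 fell, beside 1.49% and 0.854% of all. An unadjusted p under 0.05 was reached by 5 of the 8, all higher in barrows, where 5.96% of all tested probe sets did so in that direction. Those 5 were the tested probe sets of FASN and ACSS2, and the 4 called with the block were among them. ACACA, SLC25A1 and OXSM added none to either count. Probe sets of the same gene are not independent of each other. The median difference of the 8 was 0.40 on the log2 scale, and that of all tested probe sets was -0.014.

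Both groups carry the numbers 1 to 3. Deviations of boar and barrow pools of the same number from their group means correlated weakly, at 0.12 to 0.26. Values within a number are therefore given as well. All 3 barrow pools lay above all 3 boar pools in 4 of the 8 probe sets, and in 8.38% of all tested. Those 4 were all probe sets of FASN or ACSS2. The barrow pool lay above the boar pool within every number in 7 of the 8, and in 17.5% of all tested. Differences and folds refer to log2(signal + 16), where signal is the MAS5 intensity of the array, and folds of dim probe sets are understated on that scale.

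**Figure D1:**
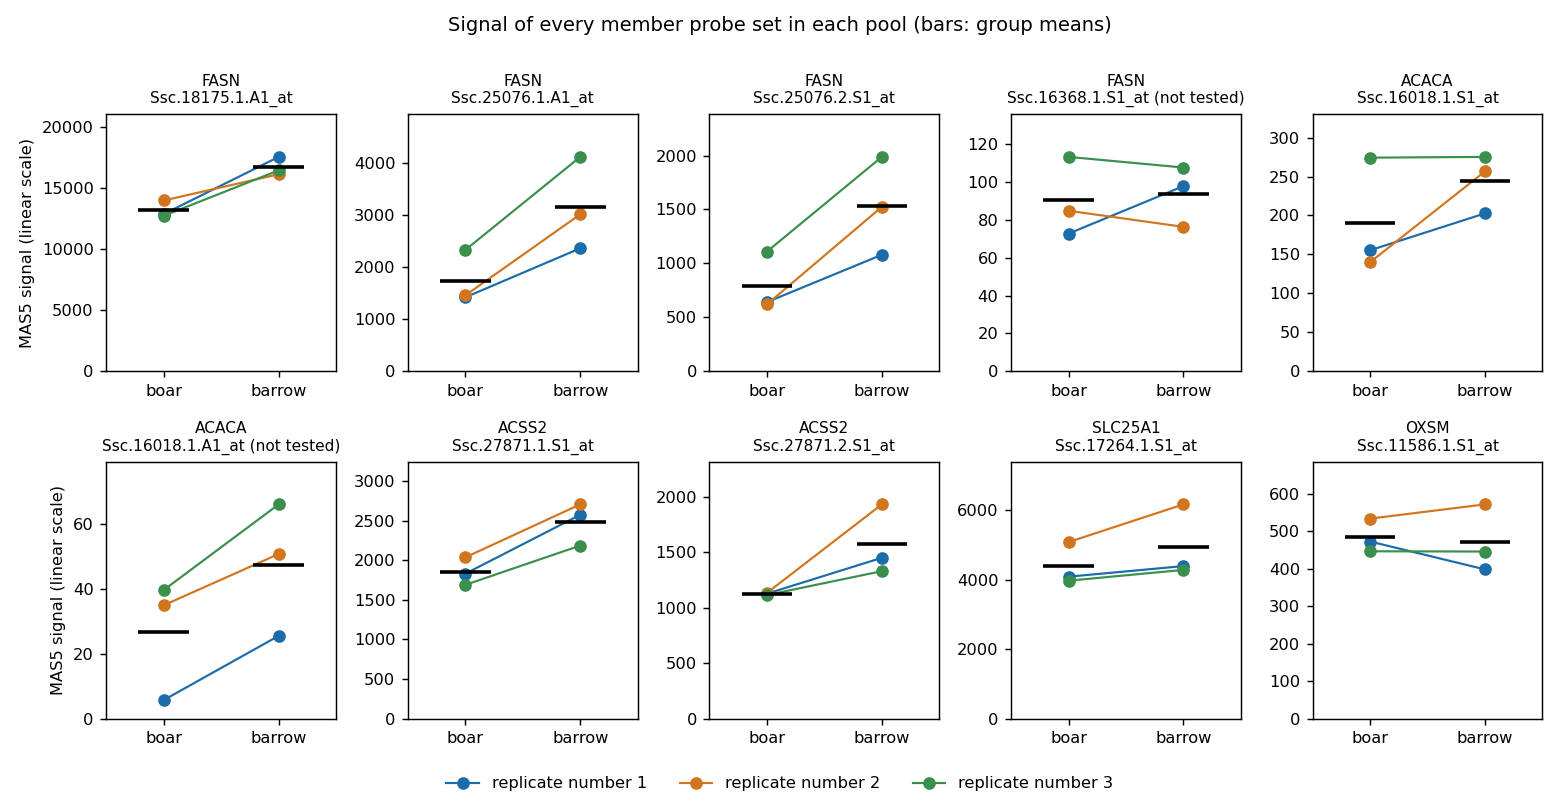
MAS5 signal (linear scale, each axis from 0) of the 10 member probe sets in the 3 boar and 3 barrow pools, with lines joining pools of the same replicate number and black bars at the group means. The 2 FASN probe sets with boar means of 1738 and 789 climb along every line. OXSM runs from 398 to 572, and its lowest and highest pools are both barrow pools.

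FASN, the enzyme that assembles palmitate, was measured by 3 tested probe sets. The brightest, Ssc.18175.1.A1_at, had signals of 12845, 13954 and 12698 in boar pools 1 to 3 and of 17519, 16102 and 16420 in barrow pools 1 to 3. Every barrow pool lay above every boar pool. The mean went from 13165 ± 687 to 16680 ± 744 (mean ± SD of 3 pools), a 1.27-fold rise (95% CI 1.15 to 1.40, limma adjusted p = 0.035, or 0.032 when blocked by number). Within the numbers the log2 differences were 0.45, 0.21 and 0.37. The call was lost without boar pool 1 (limma adjusted p = 0.22), boar pool 3 (0.19), barrow pool 1 (0.14) or barrow pool 3 (0.10), with no filter on dim probe sets (0.11) and without the intensity trend (0.23).

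The second FASN probe set, Ssc.25076.1.A1_at, had signals of 1422, 1458 and 2334 in boars and of 2365, 3020 and 4126 in barrows. Boar pool 3 nearly reached barrow pool 1, so the groups only just separated. The fitted fold was 1.82 (95% CI 1.31 to 2.52), with a limma adjusted p of 0.097 without the block and 0.0025 with it. The standard error of the log2 difference, 0.86, was 0.21 without the block and 0.078 with it. Number 3 was the highest pool in both groups, and the within-number differences were 0.73, 1.04 and 0.82.

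The third FASN probe set, Ssc.25076.2.S1_at, followed the same order of pools. Its signals were 640, 619 and 1109 in boars and 1079, 1524 and 1987 in barrows, and here boar pool 3 lay above barrow pool 1. The fitted fold was 1.93 (95% CI 1.34 to 2.79), with a limma adjusted p of 0.10 without the block and 0.0073 with it. Within the numbers the log2 differences were 0.74, 1.28 and 0.83. Both of these probe sets were higher in barrows at every number, although the groups of the third overlap.

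The fourth FASN probe set, Ssc.16368.1.S1_at, was dim and was not tested. Its signals were 72.7, 84.9 and 113 in boars and 97.9, 76.3 and 108 in barrows, and its log2 difference of 0.06 went up within number 1 and down within numbers 2 and 3. Averaged over the 3 tested probe sets, FASN had a log2 difference of 0.72 (SE 0.15, limma adjusted p = 0.045 among 5356 genes, or 0.0019 when blocked by number).

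The size of the FASN difference varied among the tested probe sets, and the exact test could not settle whether those sizes differ. Ssc.25076.1.A1_at differed between the groups by 0.52 more on the log2 scale than the brightest probe set did, and Ssc.25076.2.S1_at by 0.61 more. Within the numbers the excess was 0.28, 0.84 and 0.45 for the former and 0.29, 1.07 and 0.46 for the latter, always above 0. The exact permutation p was 0.2 for both (2-sided, adjusted 0.27 over 4 such comparisons), where 0.1 is the smallest that 3 against 3 arrays allow. The 2 dimmer tested probe sets differed from each other by 0.09, with the same exact p. The brightest probe set lay at signals where the highest probe set of an array read 27591 to 32517, and whether its fold is compressed there was not tested.

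**Figure D2:**
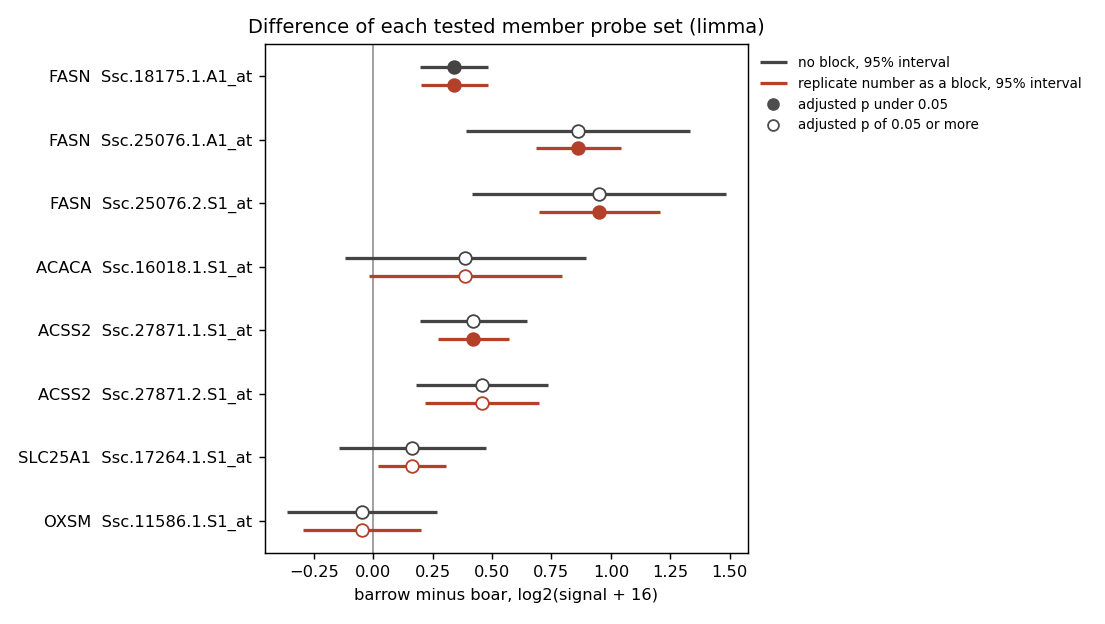
Barrow minus boar difference in log2(signal + 16) for the 8 tested member probe sets (horizontal axis), with 95% intervals from limma without a block (grey) and with the replicate number as a block (red) and filled circles where the adjusted p is under 0.05. All 3 FASN probe sets and 1 of ACSS2 are filled with the block, but only the brightest FASN probe set without it.

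ACACA, which makes the malonyl-CoA that FASN uses, was dim on this array. Its tested probe set, Ssc.16018.1.S1_at, had signals of 155, 140 and 274 in boars and of 203, 257 and 275 in barrows. Boar pool 3 matched the highest barrow pool, and the groups overlap. The log2 difference was 0.39 (95% CI -0.12 to 0.90, limma adjusted p = 0.55, or 0.34 when blocked by number). Within numbers 1 and 2 it was 0.35 and 0.81, and within number 3 it was 0.0048. Its interval contains 0 as well as the difference of every FASN probe set except the third. Its other probe set, Ssc.16018.1.A1_at, was not tested, with means of 26.8 ± 18.4 in boars and 47.5 ± 20.5 in barrows (mean ± SD of 3 pools) and overlapping groups.

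ACSS2, the synthetase that makes acetyl-CoA from acetate, was higher in barrows in both of its probe sets. The brighter, Ssc.27871.1.S1_at, had signals of 1829, 2035 and 1688 in boars and of 2572, 2704 and 2184 in barrows, so the groups did not overlap. The fold was 1.34 (95% CI 1.14 to 1.57), with a limma adjusted p of 0.092 without the block and 0.020 with it. With array weights and no block the limma adjusted p was 0.036. These were the only 2 of 15 alternatives in which it passed. With 1 pool left out it passed in 0 of 6, with a limma adjusted p of up to 0.36. Within the numbers the log2 differences were close together, at 0.49, 0.41 and 0.37.

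The other ACSS2 probe set, Ssc.27871.2.S1_at, had nearly equal boar pools. Their signals were 1128, 1134 and 1115, against 1451, 1934 and 1331 in barrows, where pool 2 stood above the others. The fold was 1.37 (95% CI 1.13 to 1.67, limma adjusted p = 0.14, or 0.072 when blocked by number). The log2 differences of the 2 ACSS2 probe sets were 0.04 apart (exact permutation p = 0.9, 2-sided).

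SLC25A1, the carrier that brings citrate out of the mitochondrion, had signals of 4083, 5079 and 3967 in boars and of 4388, 6163 and 4279 in barrows. Number 2 was far above the others in both groups, and the groups overlap. The log2 difference was 0.16 (95% CI -0.15 to 0.47, limma adjusted p = 0.70, or 0.26 when blocked by number). Within the numbers it was 0.10, 0.28 and 0.11. Without barrow pool 2 the difference was -0.0055.

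OXSM, the condensing enzyme of the mitochondrial system, had signals of 472, 534 and 446 in boars and of 398, 572 and 446 in barrows. Barrow pools 1 and 2 were the lowest and the highest of all 6. The log2 difference was -0.05 (95% CI -0.36 to 0.27, limma adjusted p = 0.94, or 0.88 when blocked by number), and within the numbers it was -0.24, 0.10 and -0.0021. That interval leaves out the estimates of the 3 tested FASN probe sets, and those of ACACA and of both ACSS2 probe sets, but not that of SLC25A1. The sign turned without boar pool 2 (0.022) and without barrow pool 1 (0.062).

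The difference of each probe set of the cytosolic route, with SLC25A1 counted in it, was then set against that of OXSM on the same arrays. All 7 exceeded OXSM within every number. They are the same 7 that lay higher in barrows within every number, so this count adds little to that one. The share of all tested probe sets that exceed OXSM in this way was not computed. The excess on the log2 scale was 0.39 for the brightest FASN probe set, 0.91 and 0.998 for the others, 0.44 for ACACA, 0.47 and 0.51 for ACSS2 and 0.21 for SLC25A1. The exact permutation p (2-sided, n = 3 against 3) was 0.1 for 5 of them, the smallest this design allows, 0.2 for the brightest FASN probe set and 0.3 for ACACA. Adjusted over the 7 comparisons these became 0.14, 0.23 and 0.30. Since the test cannot reach 0.05 with these arrays, it does not decide whether the cytosolic route and OXSM differ. Within the numbers the excess was 0.97, 0.95 and 0.82 for Ssc.25076.1.A1_at and 0.34, 0.18 and 0.11 for SLC25A1. All 7 share the OXSM values and are not independent of each other.

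**Figure D3:**
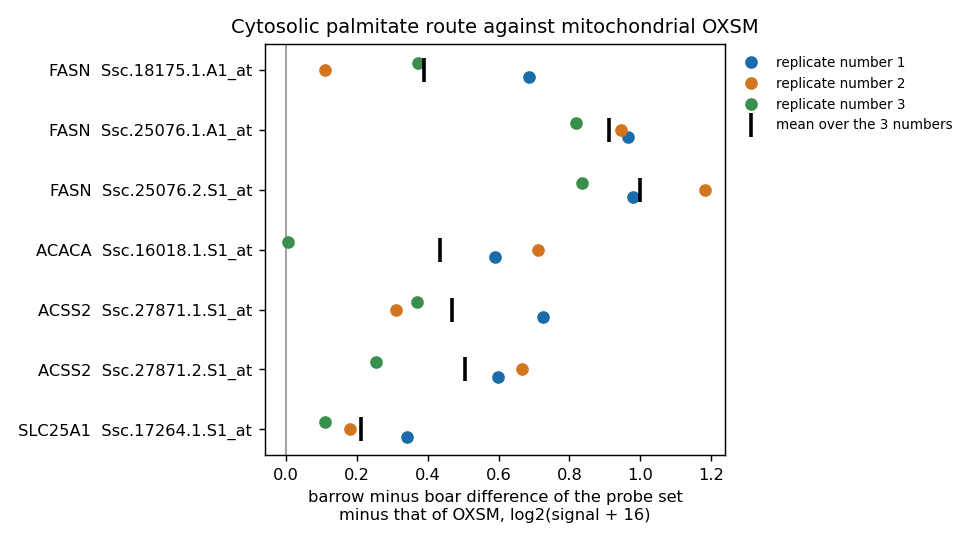
Barrow minus boar difference of each tested probe set of the cytosolic route, less that of OXSM (horizontal axis, log2(signal + 16)), for the 3 replicate numbers (coloured points) and their mean (black ticks). Every point lies above 0, the lowest being ACACA in number 3 at 0.0070.

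The members fell into different orders of pools. Pool number 3 was the highest in both groups in 3 of the FASN and both of the ACACA probe sets, and pool number 2 in both of ACSS2, in SLC25A1 and in OXSM. In the remaining FASN probe set, the brightest, boar pool 2 and barrow pool 1 were highest. The highest boar pool and the highest barrow pool thus carried the same number in 9 of the 10 probe sets, and in 7 of the 8 tested, against 41% of all tested probe sets. This count was chosen after the values were seen.

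Among 11 other genes that supply or use acetyl-CoA, citrate or malonyl-CoA, 6 had a tested probe set. The brightest probe set of each was counted, and 1 rose, 0 fell and 5 of 6 lay above 0, with a median log2 difference of 0.09. Cytosolic malic enzyme ME1, which makes NADPH for the synthase, rose by 0.44 (limma adjusted p = 0.028, from 7442 ± 720 to 10105 ± 481, mean ± SD of 3 pools) and by 0.75 in its other probe set (limma adjusted p = 0.0053). The call of its brightest probe set was lost in 6 of 15 alternatives, with a limma adjusted p of up to 0.18. ACSS3, a mitochondrial acyl-CoA synthetase related to ACSS2, had differences of 0.38, 0.50 and 0.73 in its 3 probe sets (limma adjusted p = 0.067, 0.15 and 0.11, or 0.022, 0.038 and 0.10 when blocked by number).

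The matrix enzymes that form citrate had small differences. Citrate synthase CS had 0.11 (limma adjusted p = 0.54), and pyruvate carboxylase PC had -0.12 (limma adjusted p = 0.50), with all barrow pools below all boar pools. MDH1, which reduces cytosolic oxaloacetate, had 0.07 and the acetyl transferase CRAT had 0.0024. ACLY, ACACB, MLYCD, ACOT12 and OLAH carried no probe set with that symbol and were not analysed here.

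In the mitochondrial synthesis and lipoate list 11 of 17 genes were tested. By limma 0 rose and 0 fell, with 3 at an unadjusted p under 0.05, all higher in barrows, and 1 called when blocked by number. The median difference was 0.0047, with 6 above 0 and 5 below. The malonyl transferase MCAT had -0.16 and the enoyl reductase MECR 0.09 on the log2 scale (limma adjusted p = 0.76 and 0.86), and the ketoacyl reductase subunit HSD17B8 had -0.04. NDUFAB1, the acyl carrier protein that is also a subunit of respiratory complex I, had 0.20 (limma adjusted p = 0.23), with all barrow pools above all boar pools.

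The 3 with an unadjusted p under 0.05 were NDUFAB1 and 2 subunits of pyruvate dehydrogenase, the lipoate-dependent complex that makes acetyl-CoA in the matrix. PDHB had 0.29 (limma adjusted p = 0.080, or 0.039 when blocked by number) and PDHA1 had 0.30 (limma adjusted p = 0.24). The subunits DLAT and DLD had 0.0047 and -0.05.

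Among regulators of ACACA and FASN 15 of 26 genes were tested. By limma 0 rose and 0 fell, with 1 at an unadjusted p under 0.05, and 0 passed with the replicate block. The median difference was -0.09, with 4 of the 15 above 0 and 11 below, where 46.6% of all tested probe sets lay above 0. NR1H3, the liver X receptor alpha that activates lipogenic genes, had -0.38 on the log2 scale (from 800 ± 38.7 to 611 ± 60.8, mean ± SD of 3 pools, limma adjusted p = 0.13, or 0.071 when blocked by number), and all barrow pools lay below all boar pools. NR1H3 passed in 2 of 15 alternatives, with array weights (limma adjusted p = 0.038) and without barrow pool 2 (0.044). Over the alternatives its limma adjusted p went up to 0.37.

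INSIG2, which holds the sterol regulatory proteins in the endoplasmic reticulum, had -0.22, and PRKAG2, a subunit of the AMP-activated kinase that inhibits ACACA, had -0.19 (limma adjusted p = 0.42 and 0.65). SREBF1, the gene of the main lipogenic sterol regulatory protein, was too dim to be tested, with means of 84.6 ± 8.36 in boars and 71.8 ± 29.7 in barrows (mean ± SD of 3 pools). THRSP and MLXIPL carried no probe set with that symbol and were not analysed here.

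**Figure D4:**
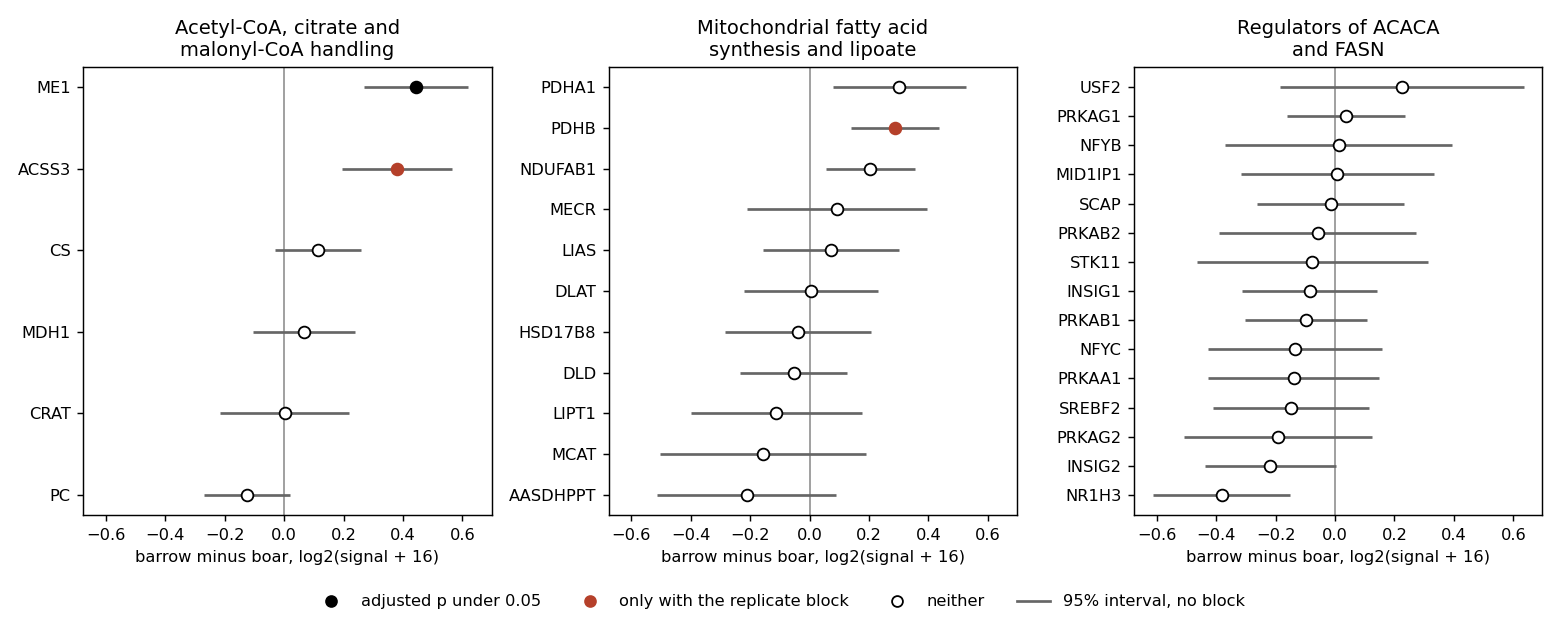
Barrow minus boar difference in log2(signal + 16) with its 95% interval (limma, no block) for the brightest tested probe set of each gene in the 3 pathway lists. Black circles have an adjusted p under 0.05, which ME1 alone reaches, and red circles pass only with the replicate block, as ACSS3 and PDHB do.

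Downstream of palmitate, ELOVL6, which elongates palmitate, rose by 0.81 to 0.96 in 3 probe sets and had 0.22 in the brightest (limma adjusted p = 0.18), and the desaturase SCD had 0.12 (limma adjusted p = 0.55). PGD, which makes NADPH in the pentose phosphate pathway, had 0.49 (limma adjusted p = 0.065, or 0.0081 when blocked by number).

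Over the 6 arrays, the genes whose log2 signal followed the brightest FASN probe set most closely were ME1, the peptidase APEH, the glycolytic enzymes ENO1 and GAPDH, and MEMO1. Pearson's r was 0.99, 0.99, 0.99, 0.99 and 0.98, and after the group means were removed it was 0.97, 0.92, 0.88, 0.88 and 0.83. GAPDH, often used as a reference gene, itself rose by 0.48 (limma adjusted p = 0.040). APEH, ENO1 and MEMO1 had 0.20, 0.27 and 0.29 and did not pass (limma adjusted p = 0.36, 0.097 and 0.14). Genes picked for following FASN over both groups tend to share its difference, so these values are not separate evidence. Apart from the replicate block, the alternatives were not run for GAPDH. The closest to OXSM were the GTPase DRG1, the proteasome subunit PSMC3, CAMLG, thioredoxin TXN and the sialidase NEU1, with r from 0.98 to 0.99 and differences between -0.05 and -0.0089. These are the highest of 7183 probe sets compared, over arrays that share scaling and pools, and are given as a description.

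The tissue label was checked against adipocyte markers. The 7 of 10 with a probe set were all tested, with ADIPOQ at 22244 ± 717 in boars and 21200 ± 2072 in barrows and FABP4 at 18545 ± 1009 and 17172 ± 1593 (mean ± SD of 3 pools). Their median log2 difference was -0.07, 1 rose (the leptin gene LEP), and their summed signal was 73034 to 76988 in boars and 68351 to 74819 in barrows. Skeletal muscle markers were dim, and all 7 with a probe set fell below the filter. Their sum was 168 to 202 in boars and 140 to 212 in barrows. The brightest, CKM, had means of 82.9 in boars and 73.3 in barrows. TNNT3 read 70.6 in barrow pool 1 and 1.74 to 8.31 in the other pools.

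Marker genes were counted by their brightest probe set, and 46.6% of all tested probe sets lay above 0. Of 8 endothelial marker genes all lay below 0, though CDH5 and VWF only at -0.0009 and -0.05. By limma 1, TEK, fell, as 0.458% of all tested probe sets did. The other tested probe set of TEK had -0.20 with overlapping groups (limma adjusted p = 0.73). The summed signal of the 8 was 15946 to 16576 in boars and 14052 to 14820 in barrows. Of 7 tested macrophage genes 6 lay below 0 but 0 passed the limma test (3 had an unadjusted p under 0.05, all lower in barrows). C1QA fell when blocked by number. The exception above 0 was CD163, at 0.15 in its brightest probe set. Its other probe set had -0.70, with all barrow pools below all boar pools (limma adjusted p = 0.094). The sums over 8 macrophage genes overlapped, at 8172 to 10596 in boars and 7818 to 9214 in barrows. By limma 0 lymphocyte and 0 fibroblast genes passed, with 0 and 2 at an unadjusted p under 0.05 (when blocked by number, 1 fibroblast gene rose and 1 fell). Lymphocyte genes had overlapping sums over 7 genes of 452 to 715 and 464 to 530, and fibroblast genes had a median of 0.03 and overlapping sums over 7 genes of 29312 to 34843 and 25608 to 35014.

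The sum over 7 genes of skin and gland epithelium was 299 to 435 in boars and 646 to 2034 in barrows, and 4 of the 7 (PIP, KRT19, EPCAM and CDH1) had all barrow pools above all boar pools. That held for 8.38% of all tested probe sets, as PIP is, and for 5.73% of those below the filter, as the other 3 are. In KRT8, KRT18 and ELF3 the groups overlapped, with log2 differences of -0.20, 0.04 and -0.03 in the brightest probe sets. The second probe sets of KRT8, CDH1 and ELF3 overlapped too, at 0.75, -0.15 and 0.24. Without PIP, a secreted gland protein that rose, the sum over 6 genes was 295 to 405 and 427 to 526. PIP stood at 1508 in barrow pool 2 and at 207 and 219 in the other barrow pools. Of the barrows, pool 2 was the lowest in the brightest FASN probe set and the highest in both ACSS2 probe sets, in SLC25A1 and in OXSM. Of the boars, pool 2 was the highest in all of these probe sets, with PIP at only 3.83. The part of these cell types in the differences of FASN and ACSS2 was not tested.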

How the data were processed

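Signal intensities of 24123 probe sets on 6 arrays (3 boar and 3 barrow pools) were used as deposited. The authors made these intensity values with MAS5, per the submitters' processing notes, whose version and settings no source used here gives. The trimmed mean of every array was 500.1, so a global scaling is visible in the values. Detection calls were not used here. Symbols came from the platform annotation (10099 probe sets with 1, 198 with several and 13826 with none), and 9989 were found in the RefSeq table. The array names no genome build, so the RefSeq table (Sscrofa11.1) served only for names and for which genes share a chromosome and their order, with no coordinates printed. Sequences were not used here.

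After removal of 124 control probe sets, the upper 60% by mean log2(signal + 16) were tested, 14399 in all, which corresponds to a signal of about 92.7. Barrows were compared with boars by limma 3.58.1 in R 4.3.3 (lmFit, eBayes with an intensity trend, 2-sided, Benjamini-Hochberg over all tested probe sets, threshold 0.05), which was checked on simulated data. The log2 ratio of a probe set to another on the same array was compared between the groups by exact permutation. Correlations of log2 signals were 0.978 to 0.988 within groups and 0.975 to 0.983 between them, and precision is limited by the number of arrays.

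The labels do not say that a number marks the same families, but residuals of same-numbered pools correlated at 0.12, 0.17 and 0.26, against -0.19 to -0.01 otherwise. All 3 exceed the minimum of 0.1, so a fit with the number as a block and values within a number are given as well. These correlations are weak. Deviations from a mean of 3 pools cancel out within a group, so positive values for same-numbered pools pull the others the opposite way. The fit without the block is the main one, and the exact permutations over arrays did not use the numbers. The block leaves fewer degrees of freedom to estimate the spread.

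The members, pathway lists and marker lists were chosen with earlier results of these data known. Named genes were every member probe set, the list genes past the threshold, the 3 per list with the smallest p, 12 chosen genes (ACLY, ACACB, ME1, MCAT, MECR, NDUFAB1, SREBF1, MLXIPL, THRSP, ELOVL6, SCD and PGD) and the 5 most like FASN or OXSM. CS, MDH1, CRAT, HSD17B8, DLAT, DLD and the markers were named after their values were seen. Alternatives were quantile normalization, median centring, pseudocounts of 1 and 64, no filter, the upper 40%, no trend, array weights, the replicate block, each pool left out and the mean of a gene's probe sets.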

Additional observations from a re-analysis of the deposited data

How the results depend on the processing

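The 167 probe sets past the threshold became 96 with no filter, 32 without the intensity trend, 425 with array weights, 338 with the replicate block, 111 genes with the mean of a gene's probe sets, and 24 to 291 with 1 pool left out. Of the members, where 1 probe set passed, 0 passed with no filter and without the trend, 2 with array weights and 4 with the replicate block, and 0 to 1 with 1 pool left out. In each of the settings with 0, limma gave 5 or 6 an unadjusted p under 0.05. The count was 24 without boar pool 1, 31 without boar pool 3, 53 without barrow pool 1, 66 without barrow pool 3 and 291 without barrow pool 2. Median centring turned 101 higher and 66 lower into 107 and 54. FASN, ACACA and ACSS2 probe sets that were tested kept a positive difference in every alternative run. With 1 pool left out OXSM ran from -0.19 to 0.062 and SLC25A1 from -0.0055 to 0.27, the sign turning for OXSM without boar pool 2 (0.022) or barrow pool 1 and for SLC25A1 without barrow pool 2. The excess of the brightest FASN probe set over OXSM was 0.24 to 0.56 with 1 pool left out and 0.39 with the replicate block (exact sign-flip p = 0.25, the smallest it can give). The cause of these shifts was not tested. With counts recomputed as an addition chosen after seeing the data, the acetyl-CoA list had 0 to 2 genes past the threshold, the mitochondrial list 0 to 1 and the regulators 0 to 1. Dim probe sets of ACACA, FASN and SREBF1 limit what can be said of them.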

Other observations

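Among the members, the acetyl-CoA list and ELOVL6, 6 genes had several tested probe sets that all lay above 0. In 5 of them, FASN, ACSS2, ME1, ACSS3 and ELOVL6, the brightest probe set had the smallest barrow minus boar difference of the gene's tested probe sets, a pattern noticed after the values were seen. It was 0.34 against 0.86 to 0.95 for FASN, 0.44 against 0.75 for ME1 and 0.22 against 0.81 to 0.96 for ELOVL6 on the log2 scale. For ACSS3 it was 0.38 against 0.50 to 0.73. ACSS2 was nearly tied, at 0.42 against 0.46 (exact permutation p = 0.9, 2-sided). CS was the exception among the 6 and also nearly tied, at 0.11 against 0.10. Outside them, LEP also went the other way, at 0.58 against 0.45, while LPL followed the pattern, at 0.03 against 0.09. Over all 359 genes with several tested probe sets that all lay above 0, the brightest had the smallest difference in 49.9%. Of the 11 of these with at least 1 probe set past the threshold, it did in 6 (54.5%). The number of probe sets per gene was not matched in these shares. The cause was not tested.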
